A study of Homo sapiens with 12 samples.

Results

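VEGFA and a set of classical targets of the hypoxia-inducible factors (HIFs) were followed through 2 ways of inhibiting ATF6 in DU145 cells, an androgen-independent human prostate cancer line. The set was given as 10 gene symbols, VEGFA, ADM, CA9, BNIP3, NDRG1, ANKRD37, EGLN1, EGLN3, P4HA1 and KDM3A. Of these, 9 matched a row among the 21439 genes of the deposited count table, and all 9 passed the filter on low counts that left 17823 genes for testing. CA9, a cell-surface carbonic anhydrase, was not analysed here.

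RNA of 12 libraries in 4 groups of 3 was sequenced with a stranded kit. The siRNA arm held cells transfected with ATF6-specific siRNA (siATF6) or with Allstar control siRNA (siCtrl), 24 h of culture following. The compound arm held cells exposed for 12 h to Ceapin-A7 at 10 µM (Ceapin), a small molecule that retains the ATF6 protein in the endoplasmic reticulum (ER), or to its solvent (DMSO). All 4 groups also received thapsigargin (Tg) at 30 nM for 3 h before harvest, which blocks the ER calcium pump and causes ER stress, so each comparison is between stressed cells. The sources used here do not give the oxygen level of the cultures. The labels disagree on the compound arm, where a transfection field lists control siRNA under DMSO and ATF6 siRNA under Ceapin, while the titles and the treatment protocol mention no siRNA. Nothing in the labels says that the 3 libraries of a group came from separate cultures, so p-values measure the spread between these libraries, which may be technical.

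HIF-1 and HIF-2 are transcription factors made of an oxygen-regulated alpha subunit and the constant partner ARNT. When oxygen is sufficient, prolyl hydroxylases of the EGLN family mark the alpha subunit for destruction by the VHL ubiquitin ligase. When it is scarce, the stable factor binds the sequence ACGTG or GCGTG in hypoxia response elements and turns on genes for vessel growth, acid balance, mitophagy and collagen maturation. VEGFA, the main growth factor for blood vessels, is also known as a target of the unfolded protein response, the programme that ATF6 serves.

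To look for the core letters of hypoxia response elements, the promoters of the members were read from RefSeq (GRCh38.p14), from 250 bases before to 50 after the start. Promoter sequences were matched for 7 of the 9 genes, ADM, ANKRD37, BNIP3, EGLN1, EGLN3, KDM3A and P4HA1. The core ACGTG was searched on both strands, its reverse being CACGT, and 4 of the 7 genes carried it in at least 1 promoter (KDM3A has 2), against 24.9% of 27305 genes counted the same way and 21.4% of the 35116 single promoters of that length. These matches are printed on the gene's strand with the core in capitals. ANKRD37 held a pair, at −161 and −143 from the start, the first of them inside the palindromic E-box CACGTG. BNIP3 also held its core inside that E-box, EGLN1 held it at −13 and P4HA1 held it on the opposite strand.
ANKRD37 (chr4:185396670-185396694): gccgggctccACGTGccagtgtttg
ANKRD37 (chr4:185396688-185396712): gtgtttgtgtACGTGcggccgtggc
BNIP3 (chr10:131982042-131982066): cacgcgccgcACGTGccacacgcac
EGLN1 (chr1:231422286-231422310): gccgtggtgtACGTGcagagcgcgc
P4HA1 (chr10:73096938-73096962): tgatcgagctCACGTagcgagggct
The variant core GCGTG was found in 3 of the 7, ADM, BNIP3 and KDM3A, against 40.6% of genes and 36.5% of single promoters, and is shown for the genes that lack ACGTG.
ADM (chr11:10304962-10304986): gcaggagcgcGCGTGgctgaggaaa
KDM3A (chr2:86441335-86441359): gggaggctgtGCGTGtcttgtgaga
The ATF6 site TGACGTG, which contains ACGTG, was found in 0 of the 7 genes, in 2.4% of all genes and in 1.97% of single promoters. The ER stress response element, CCAAT and CCACG with 9 bases between them, was likewise found in 0 of the 7, in 0.0916% of all genes and in 0.0769% of single promoters. A match says only that the letters are present, and whether HIF binds there was not tested. A missing match says only that these letters are not in this window.

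Library totals ran from 17760878 to 19202632 counts. ATF6 mRNA, the check of the siRNA labels, stood at 123.4 to 125.6 CPM (counts scaled to library depth and adjusted between libraries by the TMM method) in siCtrl and at 25.0 to 26.6 CPM in siATF6. It stood at 69.3 to 73.3 CPM in DMSO and 70.9 to 74.7 CPM in Ceapin. ATF6 mRNA was thus not lower in Ceapin than in DMSO (log2 fold change 0.03, edgeR adjusted p = 0.748), although the transfection field lists ATF6 siRNA under Ceapin. All 5 epithelial markers examined were present (EPCAM, KRT8, KRT18, KRT19 and CDH1). Summed levels over the tabulated endothelial markers (5 of 5) were 2.15 to 3.9 CPM, over fibroblast markers (4 of 5) 5.59 to 7.47 CPM and over leukocyte markers (1 of 5) 0.0553 to 0.328 CPM. In bulk RNA, fewer cells expressing a gene and less RNA per cell cannot be told apart.

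The siRNA comparison asks how these genes behave in stressed cells when ATF6 mRNA is depleted. VEGFA rose slightly, while the mitophagy receptor gene BNIP3, the stress-response gene NDRG1, the collagen hydroxylase gene P4HA1 and the oxygen sensor gene EGLN3 fell. No tested member changed by more than 1.30-fold. In all, 1 of the 9 tested members rose and 4 fell (edgeR quasi-likelihood test, adjusted p under 0.05), while 31.4% of all tested genes passed in either direction, 16.1% upward and 15.3% downward. The median log2 fold change was −0.04 over the members and −0.0003 over all tested genes. Of the 5 epithelial markers 4 also fell (median −0.15), their summed level being 501.3 to 520.1 CPM in siCtrl and 444.3 to 473.4 CPM in siATF6, and their part in the members' changes was not tested.

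The Ceapin comparison asks what happens when the ATF6 protein is held back and its mRNA is left in place. VEGFA fell slightly here, as did NDRG1 and KDM3A, the gene of a histone H3 lysine 9 demethylase. In all, 0 of the 9 members rose and 3 fell by edgeR, while 4.62% of all tested genes passed in either direction, 2.21% upward and 2.41% downward. With DESeq2 0 rose and 2 fell, and with limma-voom 0 rose and 2 fell. None of the members had an unadjusted edgeR p under 0.05 in the upward direction. The median log2 fold change was 0.03 over the members and −0.0013 over all tested genes. Here 1 of the 5 epithelial markers fell (median −0.05), with sums of 1386 to 1426 CPM in DMSO and 1338 to 1401 CPM in Ceapin, and its part was not tested.

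**Figure D1:**
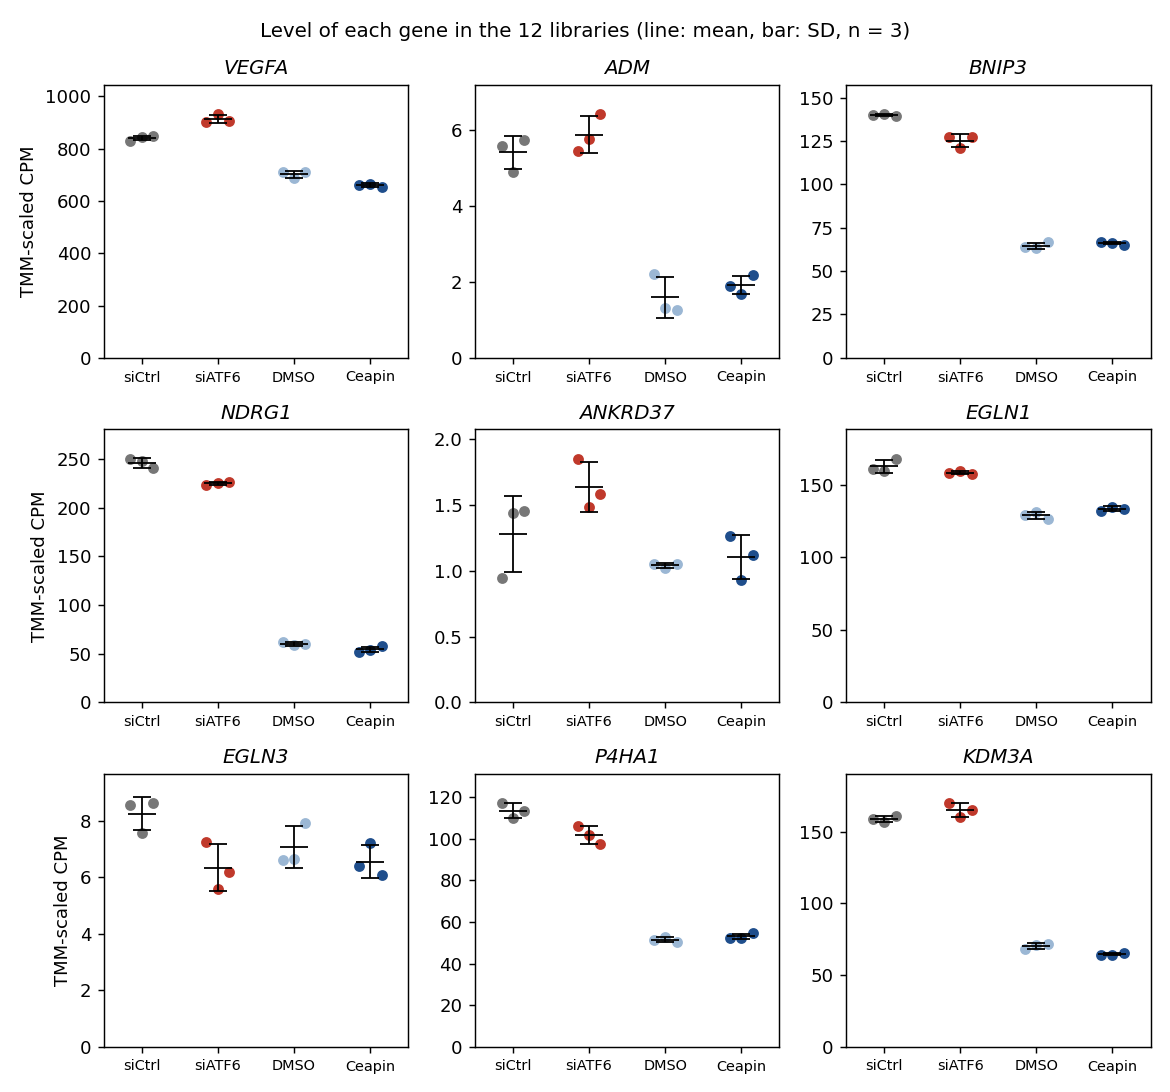
TMM-scaled CPM (vertical axis, from 0) of the 9 members in each of the 12 libraries, by group, with the mean as a line and the SD as a bar (n = 3). NDRG1, BNIP3, P4HA1, KDM3A and ADM sit far lower in both compound-arm groups than in both siRNA-arm groups, and VEGFA steps down from siATF6 to Ceapin.

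The first of the secreted ligands is VEGFA (ENSG00000112715, GRCh38 chr6:43770184-43786487, + strand). Its level was 831.1, 843.3 and 847.1 CPM in siCtrl replicates 1 to 3 and 900.5, 932.2 and 907.5 CPM in siATF6. Each siATF6 library lay above each siCtrl library. The rise was 8.67%, or 0.12 on the log2 scale (SE 0.0202, edgeR adjusted p = 1.4e-05). In the compound arm VEGFA stood at 709.1, 687.0 and 711.8 CPM in DMSO and at 660.6, 666.8 and 652.4 CPM in Ceapin, again without overlap. It fell by 6.08% there, or −0.09 on the log2 scale (SE 0.0207, edgeR adjusted p = 0.0054). The 2 effects differed, by 0.21 on the log2 scale (SE 0.0289, edgeR adjusted p = 8.1e-07). With 11701 to 17684 counts per library, VEGFA was the most deeply counted member. Its 4 groups were ordered siATF6, siCtrl, DMSO and Ceapin from high to low, and no neighbours in that order overlapped.

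ADM (ENSG00000148926, chr11:10304680-10307397, + strand) encodes adrenomedullin, a secreted vasodilator peptide. It stood at 5.57, 4.9 and 5.74 CPM in siCtrl and at 5.45, 5.75 and 6.41 CPM in siATF6, and these ranges overlapped. In DMSO it stood at 2.21, 1.3 and 1.27 CPM and in Ceapin at 1.89, 1.69 and 2.17 CPM, also with overlap. Neither difference passed the threshold (log2 fold change 0.12, 95% interval −0.15 to 0.39, and 0.26, interval −0.16 to 0.68). ADM had 23 to 40 counts per library in the compound arm and 95 to 122 in the siRNA arm, which limits its precision.

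The mitophagy receptor gene BNIP3 (ENSG00000176171, chr10:131966455-131982013, − strand) is a direct HIF-1 target. Its level was 139.8, 140.4 and 139.5 CPM in siCtrl and 127.5, 121.0 and 127.1 CPM in siATF6. All siATF6 libraries were below all siCtrl libraries, and the change was −0.16 on the log2 scale (SE 0.0277, edgeR adjusted p = 2.1e-05). In the compound arm the levels overlapped, with 64.0, 63.4 and 66.6 CPM in DMSO and 66.6, 66.2 and 65.3 CPM in Ceapin (0.03, 95% interval −0.04 to 0.10). The 2 effects differed by −0.19 (SE 0.0449, edgeR adjusted p = 0.00156). BNIP3 has processed pseudogenes with which it can share reads. Of these, BNIP3P11 had a mean of 67.5 counts, with mean levels of 3.87 CPM in siCtrl and 4.6 CPM in siATF6. It did not pass in the siRNA comparison (0.25, edgeR adjusted p = 0.198). Sharing of reads was not tested, so BNIP3 is reported with that uncertainty.

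NDRG1 (ENSG00000104419, chromosome 8, 133237171 to 133302022, − strand) is induced by hypoxia and other stresses. It stood at 250.6, 247.7 and 240.9 CPM in siCtrl and at 223.6, 225.2 and 227.1 CPM in siATF6. The groups did not overlap, and NDRG1 changed by −0.13 on the log2 scale (SE 0.0251, edgeR adjusted p = 1.1e-04). In DMSO it stood at 61.8, 58.6 and 59.7 CPM and in Ceapin at 52.0, 54.1 and 57.5 CPM, again without overlap. That fall was of similar size (−0.14, SE 0.0393, edgeR adjusted p = 0.0329). NDRG1 was the member that passed in the same direction in both comparisons, with a difference of 0.01 between the effects (95% interval −0.09 to 0.10). The compound-arm call was lost without Ceapin replicate 1 (adjusted p = 0.223), Ceapin replicate 2 (0.12), DMSO replicate 1 (0.164) or DMSO replicate 3 (0.0719), and in the fit to only the 6 libraries of the arm (0.0502).

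ANKRD37 (ENSG00000186352, chr4:185396021-185400628, + strand) encodes a small ankyrin-repeat protein that is used as a marker of HIF activity. It was the least abundant member, with 17 to 35 counts per library. It stood at 0.947, 1.44 and 1.45 CPM in siCtrl and at 1.85, 1.48 and 1.58 CPM in siATF6. These groups did not overlap, but siCtrl replicate 1 lay well below its partners, and the log2 fold change of 0.35 (95% interval −0.10 to 0.80) did not pass. In the compound arm the log2 fold change was 0.08 (interval −0.43 to 0.60), with 1.02 to 1.05 CPM in DMSO and 0.928 to 1.26 CPM in Ceapin. ANKRD37 overlaps UFSP2 on the opposite strand over 1089 bases, and the sources used here do not state whether the counting used strand. UFSP2 had mean levels of 10.1 to 11.9 CPM and did not pass in the siRNA comparison (−0.02) or in the compound one (−0.03).

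The oxygen sensors EGLN1 (ENSG00000135766, chr1:231363751-231425044, − strand) and EGLN3 (ENSG00000129521, chr14:33924231-34462774, − strand) are prolyl hydroxylases that HIF itself induces, a negative feedback. EGLN1 stood at 160.8, 160.0 and 168.2 CPM in siCtrl and at 158.2, 159.6 and 157.5 CPM in siATF6. The ranges did not overlap, yet the difference was small and did not pass (log2 fold change −0.04, 95% interval −0.09 to 0.01). In the compound arm it stood at 129.4, 131.6 and 126.5 CPM in DMSO and at 131.9, 135.1 and 133.8 CPM in Ceapin (0.05, interval −0.01 to 0.11). The difference of the effects had an edgeR adjusted p of 0.0908, and it passed with scaling by library totals alone (adjusted p = 0.0362). EGLN3 stood at 8.58, 7.58 and 8.63 CPM in siCtrl and at 7.24, 5.59 and 6.2 CPM in siATF6. The groups did not overlap, and its change of −0.38 on the log2 scale (SE 0.11, edgeR adjusted p = 0.00735) was the largest fall among the members. The call was lost without siATF6 replicate 2, the lowest library (adjusted p = 0.0612). In Ceapin against DMSO the ranges overlapped (−0.11, interval −0.34 to 0.12), and the difference of the 2 effects did not pass (edgeR adjusted p = 0.247). The annotated span of EGLN3 also holds SPTSSA on the same strand, a gene with a mean of 3152.4 counts. SPTSSA fell in the siRNA comparison (−0.08, edgeR adjusted p = 0.0421) and in the compound one (−0.15, edgeR adjusted p = 0.00459). Whether the transcripts of EGLN3 and SPTSSA share sequence, so that reads could be divided with error, was not examined.

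P4HA1 (ENSG00000122884, chr10:73007217-73096974, − strand) is the catalytic subunit of the prolyl hydroxylase that stabilises collagen in the ER. It stood at 117.1, 110.2 and 113.3 CPM in siCtrl and at 106.3, 101.8 and 97.3 CPM in siATF6. The groups did not overlap (P4HA1 changed by −0.16 on the log2 scale with SE 0.0327, edgeR adjusted p = 2.6e-04). In DMSO it stood at 51.3, 52.9 and 50.5 CPM and in Ceapin at 52.3, 52.4 and 54.5 CPM, with overlap (0.04, 95% interval −0.05 to 0.13). The 2 effects differed by −0.20 (SE 0.0535, edgeR adjusted p = 0.00562).

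KDM3A (ENSG00000115548, chr2:86440647-86492716, + strand) removes methyl groups from histone H3 at lysine 9 and is itself induced by HIF-1. It stood at 159.1, 156.6 and 160.9 CPM in siCtrl and at 169.8, 160.4 and 164.9 CPM in siATF6. These ranges overlapped, and the log2 fold change of 0.06 (95% interval 0.00 to 0.11) did not pass (edgeR adjusted p = 0.121). In DMSO it stood at 68.0, 71.1 and 71.5 CPM and in Ceapin at 63.8, 64.3 and 65.3 CPM, with each Ceapin library below each DMSO library. The fall of −0.12 (SE 0.0356, edgeR adjusted p = 0.0402) lay near the threshold. It was lost with DESeq2 (adjusted p = 0.0674), limma-voom (0.0539) and library totals (0.0661). It was also lost without Ceapin replicate 1 (0.135), 2 (0.123) or 3 (0.0696) and without DMSO replicate 2 (0.133) or 3 (0.161). The 2 effects on KDM3A differed by 0.18 (SE 0.0445, edgeR adjusted p = 0.00289).

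**Figure D2:**
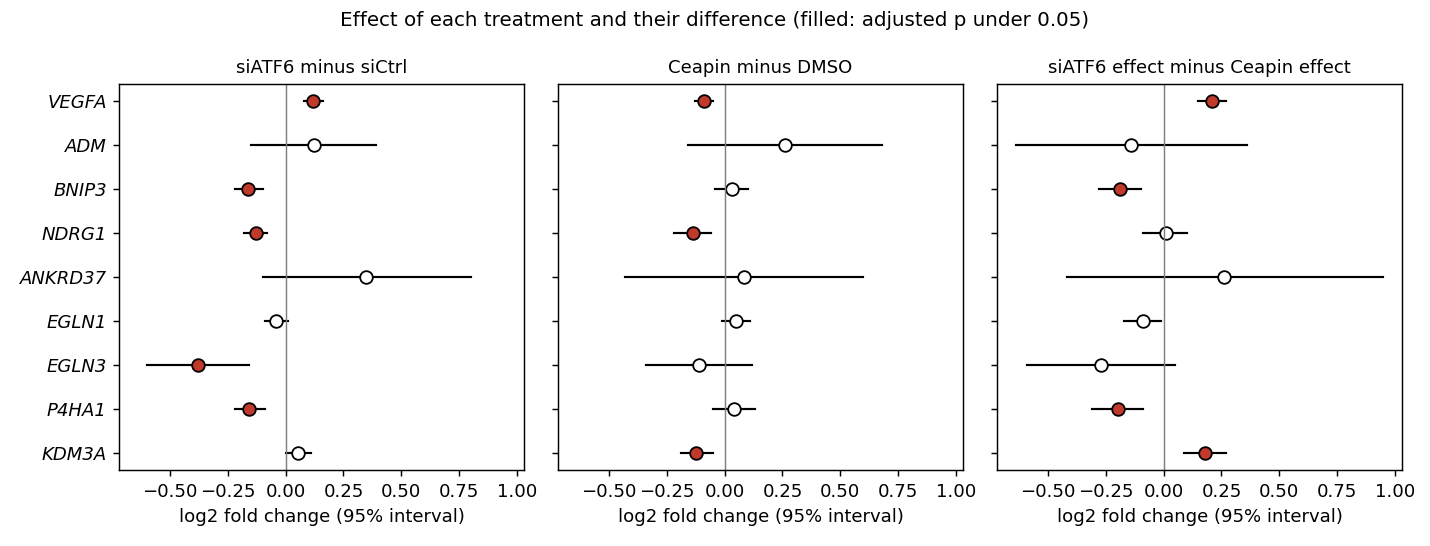
Log2 fold change with its 95% interval (horizontal axis) for the 9 members after ATF6 siRNA, after Ceapin-A7, and for the siRNA effect minus the Ceapin-A7 effect, with filled points past an adjusted p of 0.05. VEGFA is filled in all 3 panels, at 0.12, −0.09 and 0.21, while the wide intervals of ADM and ANKRD37 include 0 in each.

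Across the members the interaction contrast, the test of whether the siRNA effect differed from the Ceapin-A7 effect, passed for 4 of 9. It was positive for VEGFA and KDM3A and negative for BNIP3 and P4HA1. Of all tested genes 23.4% passed that test, 12.3% with a positive and 11.1% with a negative difference. The members thus split between the signs and did not move as a block. The comparisons share no library. Genes past the threshold in both numbered 488 of 17823, of which 258 moved the same way and 230 in opposite ways. VEGFA was the member that moved in opposite ways, and NDRG1 the one that moved the same way.

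The pattern of VEGFA was also compared with that of the 11206 tested genes whose mean reached 5 CPM. With the mean of each arm subtracted, the genes with the highest Pearson r over the 12 libraries were AHCYL1 (0.979), ATP8B1 (0.963), VPS26B (0.962), RAD51AP1 (0.961) and SON (0.956). These values are descriptive, because the 12 points fall into 4 groups and share their libraries. Without that subtraction HADHA, JARID2, PMEPA1, IL6R and RHOB came first, and no pooled r is given because the arms form separate clusters.

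For 7 of the 9 members the levels differed between the control groups of the arms. In DMSO against siCtrl, 7 of the 9 members were lower and 0 higher (edgeR), while 61.9% of all tested genes passed in either direction, 30.7% downward and 31.2% upward. DESeq2 and limma-voom also gave 0 higher. NDRG1 was 4.11-fold lower in DMSO, at −2.04 on the log2 scale (SE 0.0309, edgeR adjusted p = 1.5e-31), and ADM 3.37-fold lower (−1.75, SE 0.169). KDM3A, P4HA1 and BNIP3 were 2.26-, 2.20- and 2.16-fold lower. EGLN1 was 1.26-fold lower, and the VEGFA level changed by −16.4%. ANKRD37 (−0.30, 95% interval −0.80 to 0.20) and EGLN3 (−0.22, edgeR adjusted p = 0.0766) did not pass. EGLN3 did pass without DMSO replicate 3 (−0.32, adjusted p = 0.0264) or siCtrl replicate 2 (−0.29, adjusted p = 0.0416). The median over the members was −1.11 and over all tested genes 0.009.

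**Figure D3:**
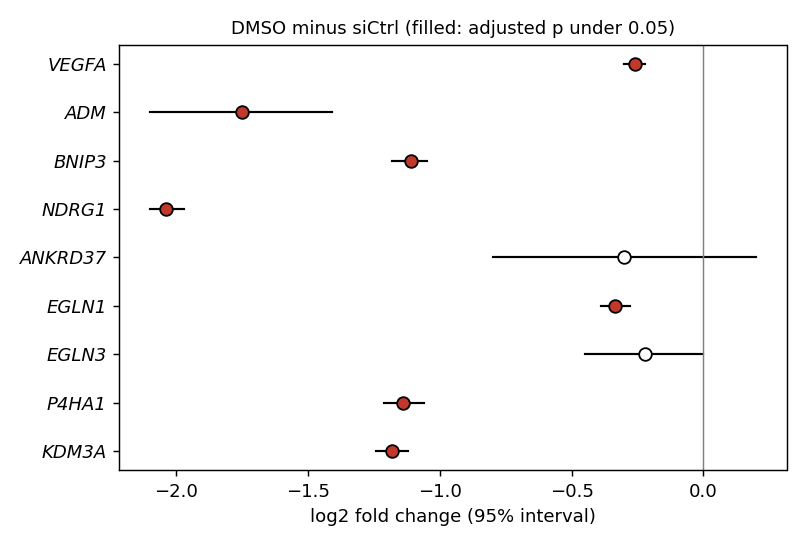
Log2 fold change with its 95% interval (horizontal axis) of the 9 members in DMSO against siCtrl, with filled points past an adjusted p of 0.05. All 9 points lie left of 0, with NDRG1 lowest at −2.04, and the interval of ANKRD37 reaches past 0.

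Transfection (by the titles and the treatment protocol), culture time, solvent and any difference in handling separate these control groups together and cannot be told apart. The summed level of the 5 epithelial markers moved between them as well, from 501.3 to 520.1 CPM in siCtrl to 1386 to 1426 CPM in DMSO, and its part in the difference was not tested. HIF1A, the gene of the HIF-1 alpha subunit, was higher in DMSO, with a mean of 1592 ± 35.2 CPM (SD, n = 3), than in siCtrl, with 1163 ± 28.6 CPM (log2 fold change 0.45, edgeR adjusted p = 3.9e-19). It was the 1 of 4 tested subunit genes that was higher, while 2 were lower. These were ARNT (−0.17, edgeR adjusted p = 7.4e-06) and ARNT2 (−0.57, edgeR adjusted p = 2.6e-11), and EPAS1 did not pass (−0.04). Of 31 other HIF targets, 25 were lower in DMSO than in siCtrl and 3 higher (90.3% in all), with a median of −0.52. Of 20 glycolytic HIF targets 10 were lower and 7 higher (85.0% in all), with a median of −0.05. These shares stand beside 61.9% of all tested genes, 30.7% lower and 31.2% higher, with a median of 0.009.

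The other genes of the pathway were examined in 6 lists by role, 87 tested genes in all. Over these lists together 49.4% of genes passed after ATF6 siRNA and 16.1% after Ceapin-A7, beside 31.4% and 4.62% of all tested genes, against which the counts of each list are to be read. In the siRNA comparison HIF1A fell from 1163 ± 28.6 to 1088 ± 12.0 CPM (−0.10, edgeR adjusted p = 3.7e-04). EPAS1, the gene of HIF-2 alpha, rose from 97.3 to 107.0 CPM in the mean (0.14). These were the 2 of 4 tested subunit genes that passed; a second gene fell without siCtrl replicate 1 or with library totals. After Ceapin-A7 only ARNT2 passed of the 4 (0.19, adjusted p = 0.0376). That call was lost with DESeq2 (adjusted p = 0.144), with no filter, with the replicate block (0.0511), in the fit to only the 6 libraries and without any 1 of Ceapin replicates 1 to 3 or DMSO replicates 1 and 2 (up to 0.226). HIF1A stood at 1643 ± 12.8 CPM in Ceapin and did not pass (0.04).

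Among 9 genes of oxygen sensing and HIF turnover, 44.4% passed after ATF6 siRNA and 11.1% after Ceapin-A7, beside 31.4% and 4.62% of all tested genes. After the siRNA 1 rose and 3 fell. SIAH2, a ubiquitin ligase that degrades prolyl hydroxylases, rose from 72.3 ± 2.29 to 95.8 ± 0.77 CPM (0.41, SE 0.033). HIF1AN, the asparaginyl hydroxylase that blocks HIF coactivator binding, fell by 0.27 on the log2 scale (SE 0.0336), with RBX1 at −0.15 and SIAH1 at −0.24. The RBX1 call was lost with DESeq2 (adjusted p = 0.096) and without siCtrl replicate 1 (0.0983), siCtrl replicate 2 (0.0722), siATF6 replicate 2 (0.15) or siATF6 replicate 3 (0.0884). The SIAH1 call was lost with DESeq2 (adjusted p = 0.0846) and without siCtrl replicate 1 (0.189), siATF6 replicate 1 (0.0665) or siATF6 replicate 2 (0.0991). The count of falls dropped to 1 with DESeq2 and without siCtrl replicate 1 or siATF6 replicate 2, and that of rises grew to 2 with DESeq2 size factors or a 1 CPM filter and without siCtrl replicate 3, siATF6 replicate 1 or Ceapin replicate 2. After Ceapin-A7 the scaffold gene CUL2 rose (0.17, adjusted p = 0.0163) and 8 did not pass. CUL2 was lost without Ceapin replicate 1 (0.168) or 2 (0.0545) and without DMSO replicate 1 (0.117) or 2 (0.0536).

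Of 6 coactivators and feedback repressors, 2 rose and 1 fell after ATF6 siRNA, and 1 rose and 1 fell after Ceapin-A7. In the same 2 comparisons 31.4% and 4.62% of all tested genes passed in either direction. BHLHE40, a hypoxia-induced repressor, rose from 151.9 ± 2.65 to 181.0 ± 5.63 CPM in the siRNA arm (0.25) and fell from 153.2 ± 2.36 to 127.9 ± 2.02 CPM in the compound arm (−0.26). CITED2, which competes with HIF for its coactivators, did the reverse, with −0.19 after the siRNA and 0.22 after Ceapin-A7. BHLHE41 rose after the siRNA (0.41, adjusted p = 0.0171), but not with DESeq2 (0.095), nor without siCtrl replicate 3 (0.0561) or siATF6 replicate 3 (0.157).

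Of 17 tested angiogenic ligands and receptors, 1 rose and 6 fell after ATF6 siRNA, and 1 rose after Ceapin-A7. These are 41.2% and 5.88% of the list, beside 31.4% and 4.62% of all tested genes. SEMA3C, a guidance ligand, fell from 288.4 ± 6.09 to 156.8 ± 4.28 CPM after the siRNA (−0.88, SE 0.0262) and stood at 348.7 and 353.2 CPM in DMSO and Ceapin. ANGPTL4, a HIF target that inhibits lipoprotein lipase, fell from 110.8 ± 3.23 to 95.9 ± 3.87 CPM after the siRNA (−0.21) and rose from 39.5 ± 2.42 to 55.4 ± 3.34 CPM after Ceapin-A7 (0.49, SE 0.0496). PDGFB was at −0.25 after the siRNA, lost without siCtrl replicate 3 (adjusted p = 0.0746), and without that library the falls numbered 2 and not 6. Of the VEGFA receptors, the kinases KDR and FLT1 stayed at or below 1.06 CPM in every library, while the co-receptor NRP1 stood at 143.2 ± 1.4 CPM in siCtrl. NRP1 was the gene that rose after the siRNA, to 151.0 ± 2.13 CPM (0.08, adjusted p = 0.0209). It missed the threshold when siCtrl replicate 2 (0.0645) or siATF6 replicate 2 (0.0814) was omitted and with library totals (0.0504).

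Of 31 other HIF targets, 48.4% passed after ATF6 siRNA and 16.1% after Ceapin-A7, beside 31.4% and 4.62% of all tested genes. After the siRNA 6 rose and 9 fell, with a median log2 fold change of −0.03. VLDLR, a lipoprotein receptor gene, changed by −0.45, LOXL2, a collagen cross-linking enzyme, by −0.27 and the nuclear receptor gene RORA by −0.43. After Ceapin-A7, 4 rose, DDIT4 (0.47), STC2 (0.24), MAFF (0.41) and LOX (0.34), and ERO1A fell (−0.11), a fall lost without Ceapin replicate 2 (adjusted p = 0.0696) or DMSO replicate 1 (0.0763). LOX, another cross-linking enzyme, had fallen after the siRNA (−0.35), and ERO1A, the ER oxidase, had risen (0.24). Of 20 glycolytic targets, 5 rose and 7 fell after the siRNA, with HK2 at −1.15, PFKL at 0.72 and PFKP at 0.30. After Ceapin-A7 0 rose and 4 fell by edgeR, LDHA (−0.13), SLC2A1 (−0.15), GAPDH (−0.08) and ALDOA (−0.08). The falls numbered 2 without Ceapin replicate 3 or DMSO replicate 2, where GAPDH had adjusted p of 0.0892 and 0.0797 and ALDOA 0.0516 and 0.0643. ALDOA was also lost without Ceapin replicate 2 (0.0733). Over the 6 lists, 8 of 87 genes passed in both comparisons, 2 in the same direction (DDIT4 and LDHA) and 6 in opposite directions (ALDOA, ANGPTL4, BHLHE40, CITED2, ERO1A and LOX). Of all 17823 tested genes 488 passed in both, 258 in the same direction and 230 in opposite directions. Genes with opposite calls were thus 6.9% of the list genes and 1.29% of all tested genes.

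**Figure D4:**
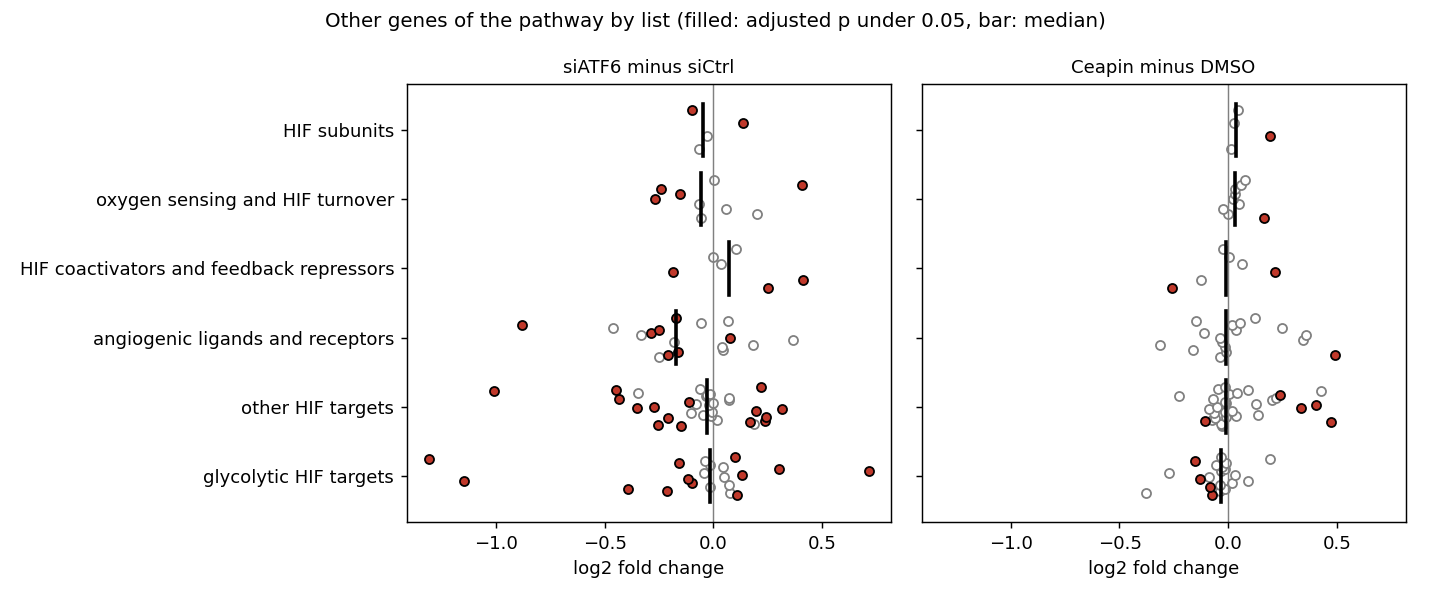
Log2 fold change (horizontal axis) of the 87 tested genes of the 6 pathway lists after ATF6 siRNA and after Ceapin-A7, 1 point per gene, filled past an adjusted p of 0.05, with the list median as a bar. Medians lie near 0 in both panels, the lowest at −0.17 for the angiogenic list after the siRNA. In the siRNA panel SLC2A3, HK2, TXNIP and SEMA3C lie far left, at −1.31, −1.15, −1.01 and −0.88. SLC2A3 and TXNIP are low, with siCtrl means of 0.928 and 2.1 CPM.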

How the data were processed

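Per the labels, libraries were made from total RNA with the TruSeq stranded kit. Per the submitters' processing notes, Salmon and build hg38 were used (the sources used here give neither version nor annotation release). The deposited values are expected counts per gene, rounded by the authors to whole numbers, with at least 1 count in all 12 libraries. The control siRNA columns are headed NC and were matched by elimination and number. Symbols matched for 21201 IDs, and positions come from GENCODE v29 (GRCh38).

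The quasi-likelihood test of edgeR 4.0.16 (R 4.3.3) was fitted to the 12 libraries together, after filterByExpr and TMM scaling, with the 4 groups as terms and 8 residual degrees of freedom. It was two-sided, adjusted by Benjamini-Hochberg over 17823 genes, with 0.05 as threshold. SEs derive from the F statistic. Alternatives were limma 3.58.1 (voom), DESeq2 1.42.0, its size factors or library totals as scaling, no filter or a 1 CPM filter, only the 6 libraries compared, the replicate block, and each library left out. The fit was tested on simulated data. No 2 replicates agreed within sampling noise (chi-square per degree of freedom 1.41 to 1.87).

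The members and lists were chosen with earlier results of these data known. Named list genes are the 3 called genes with the smallest p per list and comparison. ERO1A, LOX, RBX1 and ALDOA complete small counts, NRP1, KDR and FLT1 are named for their role, and all 7 were chosen after their values were seen. SLC2A3 and TXNIP are named only in a figure caption, for their place in the figure.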

Additional observations from a re-analysis of the deposited data

Results flagged for a closer look

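For 4 members the effect of the ATF6 siRNA and that of Ceapin-A7 differed by the interaction test (edgeR adjusted p under 0.05). The differences, siRNA effect minus Ceapin-A7 effect on the log2 scale, were 0.21 for VEGFA, −0.19 for BNIP3, −0.20 for P4HA1 and 0.18 for KDM3A. In VEGFA the effects had opposite signs (0.12 and −0.09) and both passed. In BNIP3 and P4HA1 the siRNA effect passed (−0.16 in each), and in KDM3A the Ceapin-A7 effect did (−0.12). That KDM3A call was lost with DESeq2, limma-voom or library totals and without some single libraries.

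Of the 32 other pathway genes that are named outside the figure captions, 24 also had effects that differed. Most were named for a small p in one of the comparisons, which favours a differing effect, so nothing is read from that count. Over the 6 lists 38 of 87 genes differed (43.7%), and over all tested genes 23.4%. The differences were negative for HK2 (−1.24), SEMA3C (−0.90), ANGPTL4 (−0.70), LOX (−0.69), VLDLR (−0.54), MAFF (−0.43), CITED2 (−0.40), RORA (−0.36), DDIT4 (−0.31), HIF1AN (−0.29), PDGFB (−0.29), STC2 (−0.27), LOXL2 (−0.22), CUL2 (−0.22), ARNT2 (−0.22) and HIF1A (−0.14). They were positive for PFKL (0.75), BHLHE40 (0.51), ERO1A (0.35), SIAH2 (0.35), PFKP (0.32), ALDOA (0.19), NRP1 (0.12) and SLC2A1 (0.11). ARNT2 and PDGFB were lost with DESeq2 (adjusted p = 0.106 and 0.0983). Leaving out 1 library also ended some of these calls. ARNT2 was lost without Ceapin replicate 2 or DMSO replicate 2. PDGFB was lost without Ceapin replicate 2, DMSO replicate 1, siCtrl replicate 3 (adjusted p = 0.131) or siATF6 replicate 1. SLC2A1 was lost without Ceapin replicates 1 or 3, DMSO replicate 1 or siCtrl replicate 2 (0.077), and NRP1 without DMSO replicate 1 (0.0601).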

How the results depend on the processing

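VEGFA kept its direction and call in both comparisons and in their difference under every alternative and without each library. Leaving out 1 library, the members that fell after Ceapin-A7 numbered 1 to 3 and all genes that fell 272 to 449. Differences near 0 changed sign and passed in neither direction: with library totals NDRG1 (difference of the effects −0.009) and LDHA (−0.009). Without 1 library the ranges of that difference crossed 0 for NDRG1 (−0.027 to 0.047), LDHA (−0.004 to 0.019) and KDR (−0.075 to 0.13). After the siRNA they did for MAFF (−0.048 to 0.027) and FLT1 (−0.068 to 0.384), and after Ceapin-A7 for ANKRD37 (−0.027 to 0.194), EPAS1 (−0.002 to 0.042), HIF1AN (−0.011 to 0.061), PFKP (−0.045 to 0.004), SIAH1 (−0.022 to 0.098) and RBX1 (−0.028 to 0.061). Deviations of same-numbered libraries correlated at −0.087 to 0.033, and those of libraries with unlike numbers at −0.076 to 0.13. No pairing by replicate number was seen, but with 3 libraries per group this check cannot exclude it. With the replicate block the members numbered 1 up and 4 down after the siRNA and 0 up and 3 down after Ceapin-A7, with 2850 and 2688 and with 377 and 406 of all genes, and it ended the ARNT2 call. Members with 17 to 40 counts in a library (ANKRD37, and ADM in the compound arm) are limited by depth.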

Other observations

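The 3′ untranslated regions of the members were searched for GAGTCAT, which an earlier look at these data had linked to genes that fell after the ATF6 siRNA. Of the 9 members 0 carry it, against 8.54% of 13450 tested genes, taking the longest region per gene in GENCODE v29. A 6-base part, GAGTCA or AGTCAT, is carried by BNIP3, EGLN1, EGLN3 and P4HA1, 4 of 9 (44.4%), a share near the 43.9% of tested genes. BNIP3, EGLN3 and P4HA1 fell after the siRNA and EGLN1 did not pass; NDRG1, which fell, carries neither part. The letters were linked to falls in this same siRNA comparison, so their presence in members that fell is no separate support. Whether these letters have a part in the changes was not tested.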
